A study of Mus musculus and Rattus norvegicus with 14 samples.

Results

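The nuclear-encoded subunits of respiratory complex I were described in mouse hearts. The set holds the 37 protein-coding genes of the heart table whose symbol is Nduf followed by a, b, c, s or v and a number, out of 54532 genes listed and 22046 that are protein coding. Of the 37 members, 35 encode subunits of complex I. The other two are Ndufa4, now assigned to complex IV (cytochrome c oxidase), and Ndufa4l2, its paralogue. All 37 passed the filter on low values and were tested. A further 4 genes with such a symbol are listed with another biotype, Ndufb1-ps, Ndufb4c, Ndufs6b and Ndufa11b, and are not members. No protein-coding gene was found under Ndufb1 or Ndufb1-ps, so the set may not hold every nuclear subunit.

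Complex I is the entry point of electrons from NADH into the respiratory chain of the mitochondrial inner membrane, where it couples their transfer to ubiquinone with the pumping of protons. Its L-shaped body has a matrix arm, made of the N module that oxidises NADH and the Q module that reduces ubiquinone, and a membrane arm with a proximal and a distal part that moves the protons. The catalytic core is shared with bacteria and the supernumerary subunits around it are needed for assembly and stability; the core subunits of the membrane arm are encoded by mitochondrial DNA. Cardiomyocytes, which are densely packed with mitochondria, depend on this chain for the ATP of contraction.

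RNA was sequenced from heart in 4 groups of 3 libraries. LQ-40 and SQ-3 are labelled as treatments and known by these code names, in a study of candidates against myocardial fibrosis; Model is the disease group and Sham its control. The labels give no dose, duration, strain, age or way of making the model. They leave unsaid whether the hearts given a compound were model hearts too, and whether replicates were different animals. The p-values below therefore set group differences only against the spread between these libraries, which may be technical. The libraries held 13085370 to 16698987 reads assigned to genes. The 15 cardiomyocyte markers checked, among them Myh6, Tnnt2 and Ttn, were detected in all 12 libraries, as heart tissue would give. Levels are scaled FPKM, reads per gene length and library size after a correction for library composition. Levels of different genes compare only roughly, since the deposited gene length can far exceed that of the main transcript. Log2 changes are differences of mean log2(scaled FPKM + 1). A gene is called where limma's p, adjusted by Benjamini-Hochberg over all 13000 genes tested, is below 0.05.

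Promoter sequences show which regulator motifs the members held around their starts. The RefSeq promoter table of GRCm38.p6, with 250 bases before and 50 bases after each start, held 32 of the 37 members. Motifs of regulators of respiratory genes were searched on both strands. GCGCANGCG, bound by nuclear respiratory factor 1, was found in 8 of 32 (25.0%). It was found for 15.1% of the 9318 tested genes held by the table and 7.03% of all 27025 genes in it. A gene counted once if any of its promoters matched. AANATGGCG, bound by YY1, was found in 7 of 32 (21.9%), against 5.999% of tested genes and 2.76% of all. CCGGAAG, bound by ETS factors, was found in 4 of 32 (12.5%), against 19.7% of tested genes and 9.93% of all. TNAAGGTCA, bound by oestrogen-related receptors, was found in 1 of 32 (3.13%), Ndufb4, against 0.869% of tested genes and 1.43% of all. Matches of different motifs overlapped in 0 members, and a match is not a bound site. Shown are 4 promoters with a match, 1 core subunit and 3 supernumerary ones, 5′ to 3′ on the gene's strand, with the matched letters in capitals:

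Ndufs7 (chr10:80249199-80249498, plus strand): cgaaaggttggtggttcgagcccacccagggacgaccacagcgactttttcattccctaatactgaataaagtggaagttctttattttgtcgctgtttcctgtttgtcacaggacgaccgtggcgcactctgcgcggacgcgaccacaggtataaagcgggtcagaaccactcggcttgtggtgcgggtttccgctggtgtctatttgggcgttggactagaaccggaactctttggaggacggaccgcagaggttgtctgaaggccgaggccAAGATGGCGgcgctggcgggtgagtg

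Ndufs4 (chr13:114388045-114388344, minus strand): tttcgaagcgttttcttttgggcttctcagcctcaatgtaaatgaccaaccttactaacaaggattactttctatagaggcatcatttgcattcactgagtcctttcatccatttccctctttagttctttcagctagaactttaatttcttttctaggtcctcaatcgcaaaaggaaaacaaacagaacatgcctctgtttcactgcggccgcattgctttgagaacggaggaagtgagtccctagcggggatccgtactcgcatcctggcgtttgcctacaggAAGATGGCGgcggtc

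Ndufs6 (chr13:73328433-73328732, minus strand): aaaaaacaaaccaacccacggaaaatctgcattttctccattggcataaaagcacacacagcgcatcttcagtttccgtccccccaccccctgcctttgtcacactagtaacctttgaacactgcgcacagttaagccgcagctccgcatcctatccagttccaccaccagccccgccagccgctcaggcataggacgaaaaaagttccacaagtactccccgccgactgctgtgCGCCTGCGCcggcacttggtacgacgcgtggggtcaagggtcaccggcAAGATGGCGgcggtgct

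Ndufa8 (chr2:36049289-36049588, minus strand): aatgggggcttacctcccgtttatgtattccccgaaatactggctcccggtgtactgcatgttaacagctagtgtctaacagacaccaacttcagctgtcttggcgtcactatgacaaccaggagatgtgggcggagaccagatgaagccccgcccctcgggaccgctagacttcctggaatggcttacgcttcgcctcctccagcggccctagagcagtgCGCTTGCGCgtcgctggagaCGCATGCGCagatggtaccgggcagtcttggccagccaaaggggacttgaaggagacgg

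In Ndufs7, Ndufs4 and Ndufs6 the capitals AAGATGGCG began at base 25, 36 and 34, counted from the annotated start; these letters contain ATG, the start codon of translation. Ndufs6 also held a match for nuclear respiratory factor 1, which began 15 bases before the start, and Ndufa8 held a pair, at 29 and 9 bases before it, each on the opposite strand.

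In Sham hearts the members differed widely in level. Ndufa4 averaged 497.9 ± 161 scaled FPKM and Ndufb11, a distal-arm subunit, 462 ± 58.0 (SD, n = 3 each), among the highest means of the set. Their libraries overlapped. The lowest were Ndufa4l2 at 21.0 ± 2.69 and Ndufb2 at 5.01 ± 1.32. Ndufb2, a distal-arm subunit, has a deposited length of 5628 bases and overlaps Braf, and a long deposited length lowers its FPKM. Its main transcript in the annotation has 4371 bases. Other members differ more, such as Ndufb7 with 4522 bases against 623 and Ndufs1 with 8086 against 2661, while Ndufa1 has 419 in both. The order of levels is therefore rough. The strand setting of the counting is not stated, and the exons of 16 members overlap another gene, so that their levels are uncertain to that extent; Ndufs1 (with Eef1b2) and Ndufa4l2 (with Shmt2) are among them.

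The first comparison asked how the complex differs in diseased hearts. Nearly every member was lower in Model hearts, most by about 2-fold. Of 37 members 35 were called lower, 1 higher (Ndufa4l2) and 1 was not called (Ndufs5). Among all genes tested, 18% were called lower and 20.9% higher, 38.9% in all. The median log2 change over the members was -1.06, beside 0.03 over all genes. The libraries of both groups did not overlap for 35 members that were lower and 1 that was higher, against 25.7% and 29.8% of all genes. The scaled FPKM of the members summed to 3171 to 4216 in Model libraries and 6737 to 9347 in Sham libraries.

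**Figure D1:**
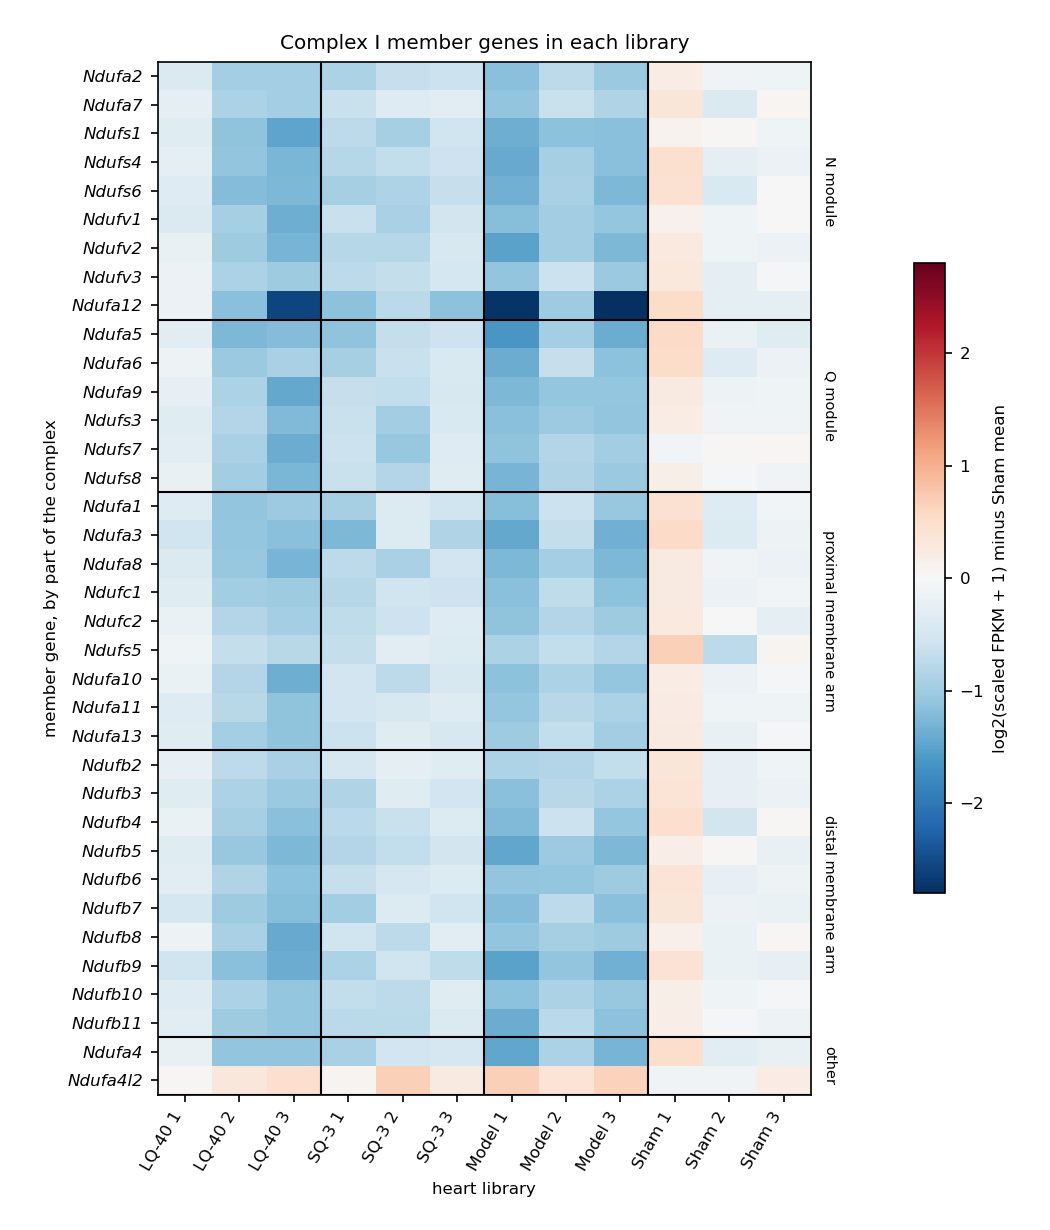
Heat map of log2(scaled FPKM + 1) minus the Sham mean for 36 members (rows, by part of the complex) in the 12 libraries (columns, LQ-40, SQ-3, Model and Sham, 3 each); blue is below and red above the Sham mean. Model columns are blue for all members but Ndufa4l2, the first LQ-40 column is paler than the other two, and the darkest cells are Ndufa12 in Model 1, Model 3 and LQ-40 3.

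The N module fell as a whole, with 9 of 9 members called lower and a median log2 change of -1.17. Ndufv1, which binds NADH and the flavin that takes up its electrons (chromosome 19, 4007497 to 4012806, mm10), had 110.3, 127 and 118 scaled FPKM in Model libraries, against 274.5, 231 and 253 in Sham libraries. The groups were far apart, and Ndufv1 fell 2.12-fold (log2 -1.09, SE 0.22, limma adjusted p = 0.00437). Ndufs1, the large subunit that carries iron-sulfur clusters on from the flavin (chromosome 1, 63143596 to 63176833), had 36.5, 43.2 and 42.4 in Model libraries, against 102, 99.0 and 88.2 in Sham libraries. Every Model value was under the lowest Sham value, and the fall was 2.34-fold (log2 -1.23, SE 0.24, adjusted p = 0.0037). Ndufv2, another iron-sulfur subunit, changed by -1.24, and Ndufs4, whose loss causes Leigh syndrome in humans, by -1.17.

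The Q module and its junction with the membrane arm fell as well, with 7 of 7 called lower and a median of -1.06. Ndufs7, which carries the last iron-sulfur cluster before ubiquinone (chromosome 10, 80249121 to 80256794), had 101, 124 and 112 scaled FPKM in Model libraries and 209, 225 and 229 in Sham libraries, a 1.96-fold fall (log2 -0.97, SE 0.25, adjusted p = 0.0129). All Model values lay well below the lowest Sham value. With quantile normalization Ndufs7 changed by -0.64 and was not called (adjusted p = 0.069). It was also not called without Model replicate 1 (adjusted p = 0.0504). Ndufa5, a supernumerary subunit of this module (chromosome 6, 24518666 to 24528013), had 96.8, 155 and 115 in Model libraries, against 439, 267 and 238 in Sham libraries. It fell 2.51-fold (log2 -1.33, SE 0.32, adjusted p = 0.00858), one of the 3 largest changes.

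The membrane arm moved alike, with 8 of 9 proximal members called lower (median -0.98) and 10 of 10 distal members (median -1.03). Ndufb9, a distal subunit of the LYR family of small mitochondrial proteins (chromosome 15, 58933756 to 58939488), had 91.7, 120.3 and 102 scaled FPKM in Model libraries and 343, 228.5 and 222 in Sham libraries, a 2.48-fold fall (log2 -1.31, SE 0.24, adjusted p = 0.0028). Ndufb2 (chromosome 6, 39592574 to 39603382) had 2.27, 2.34 and 2.69 in Model libraries and 6.52, 4.06 and 4.44 in Sham libraries, a 1.73-fold fall (log2 -0.79, SE 0.18, adjusted p = 0.00752). Its Model libraries stayed below its Sham libraries even at this low level, where adding 1 before the logarithm understates the change. Among the rest, Ndufb8, often used as a protein marker of assembled complex I, changed by -1.01, Ndufa13 (GRIM-19) by -0.89 and the X-linked Ndufa1 and Ndufb11 by -0.95 and -1.10. The 7 nuclear core subunits had a median of -1.09 (7 of 7 called lower) and the 28 supernumerary ones -1.03 (27 of 28).

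**Figure D2:**
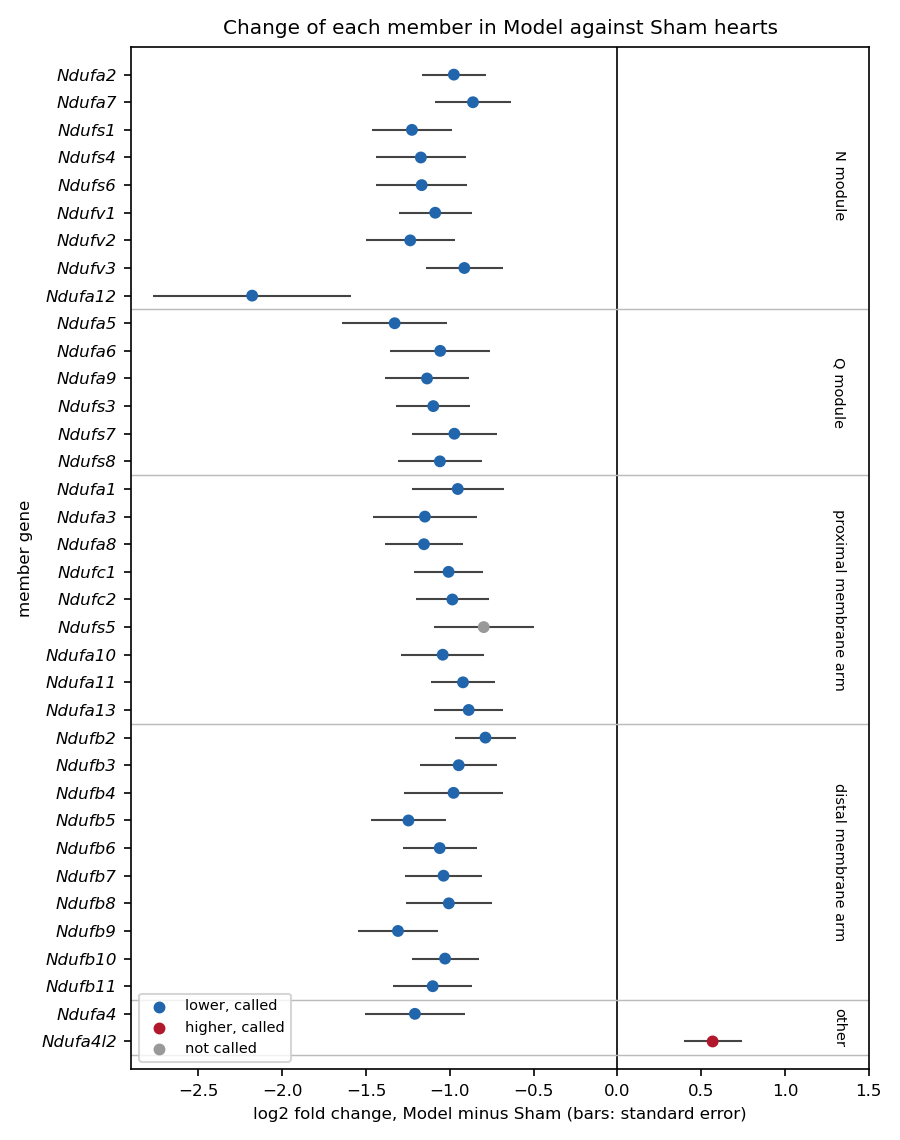
Log2 change, Model minus Sham, for 36 members (points) with its standard error (bars), ordered by part of the complex; blue is called lower, red called higher and grey not called. Most points lie close to -1, Ndufa12 stands apart at -2.18 and Ndufa4l2 alone lies above 0 at 0.57.

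The members outside complex I went in different directions. Ndufa4 (chromosome 6, 11900292 to 11907497) had 175, 262 and 196 scaled FPKM in Model libraries and 683, 390.0 and 420.3 in Sham libraries, a 2.31-fold fall (log2 -1.21, SE 0.30, adjusted p = 0.00986). Ndufa4l2, a hypoxia-inducible gene whose product lowers respiratory chain activity (chromosome 10, 127514967 to 127517154), had 34.0, 27.7 and 33.2 in Model libraries and 19.6, 19.4 and 24.1 in Sham libraries. It rose 1.48-fold (log2 0.57, SE 0.17, adjusted p = 0.0242), with the lowest Model value above the highest Sham value. This call was lost without Sham replicate 1 (adjusted p = 0.0755), Sham replicate 2 (0.0741), Model replicate 1 (0.083) or Model replicate 3 (0.0704). The count of lower members was 28 without Model replicate 1, 29 without Sham replicate 1 and 30 without Model replicate 3.

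**Figure D3:**
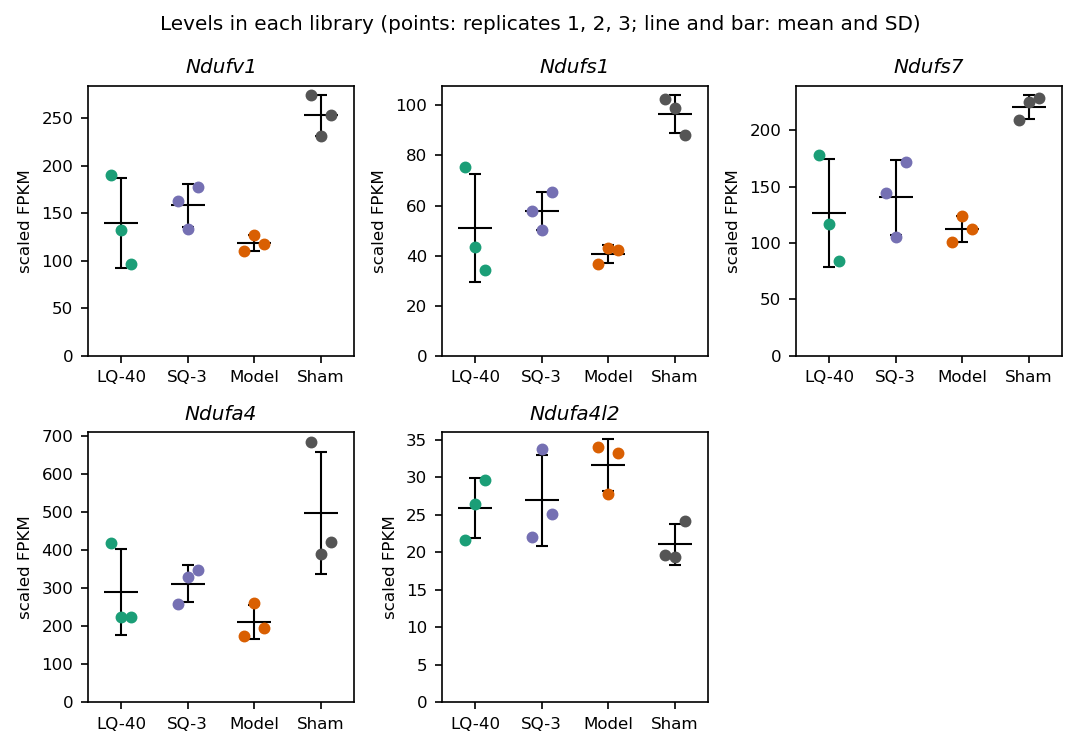
Scaled FPKM of 5 members in each library (points, replicates 1 to 3 from left to right), with the mean and SD of each group (line and bar); groups run LQ-40, SQ-3, Model and Sham. For the 3 core subunits and Ndufa4 all Model points lie below all Sham points. The LQ-40 points are the most spread for the 3 core subunits, and the Sham points for Ndufa4. Ndufa4l2 has its highest mean in Model hearts.

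Ndufa12, the member that changed most, and Ndufs5, the member not called, each have a near-identical processed pseudogene to which reads can be assigned. Such a copy, with at least 95% identity over at least 200 bases, exists for 7 members. Ndufs5, a proximal-arm subunit facing the intermembrane space (chromosome 4, 123712710 to 123718202), had 83.2, 95.9 and 86.6 scaled FPKM in Model libraries and 244, 92.6 and 162 in Sham libraries, and its change was not called (log2 -0.80, SE 0.30, adjusted p = 0.0551). Sham 2 was the exception, inside the Model range. In that library the copy BC002163 held 629 reads, 37.0% of the reads of both genes, against 34 to 93 reads in the other 11 libraries. With the reads of the copy added, Ndufs5 fell 1.98-fold (log2 -0.99, SE 0.23, adjusted p = 0.00745), and without Sham replicate 2 its log2 change was -1.17 (adjusted p = 0.00992). It was also called without LQ-40 replicate 1 (adjusted p = 0.0439), with FPKM as deposited (0.0467), with limma-voom on recovered reads (0.0422) and with a filter at a mean of 5 FPKM (0.0476).

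Ndufa12, an N-module subunit that takes the place of the assembly factor Ndufaf2 late in assembly (chromosome 10, 94198720 to 94221443), had the largest change of the set. It had 8.82, 32.2 and 8.55 scaled FPKM in Model libraries, against 94.1, 54.8 and 53.5 in Sham libraries, a 4.53-fold fall (log2 -2.18, SE 0.59, adjusted p = 0.0149). Model 1 and Model 3 were low, and Model 2 lay between them and Sham. Its copy Gm15920 held 50.2% to 84.9% of the reads of both genes, the largest shares in Model 1, Model 3 and LQ-40 3. There Ndufa12 held 238, 229 and 256 reads, against 754 in Model 2 and 705 in LQ-40 2. The copy differed little, with 1172, 1289 and 1285 reads, against 1161 in Model 2 and 1201 in LQ-40 2. The large shares thus came with few Ndufa12 reads rather than with more reads of the copy. With the copy added, the levels were 52.2, 81.7 and 56.7 in Model libraries and 189, 131 and 137 in Sham libraries, and the fall was 2.39-fold (log2 -1.25, SE 0.28, adjusted p = 0.00676), within the range of the other members. The call on Ndufa12 alone was lost without Sham replicate 1 (adjusted p = 0.0574), Model replicate 1 (0.060) or Model replicate 3 (0.0569). The adding of copies was chosen after the data were seen. For the other 5 members with a copy, it held at most 6.04% of the reads.

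**Figure D4:**
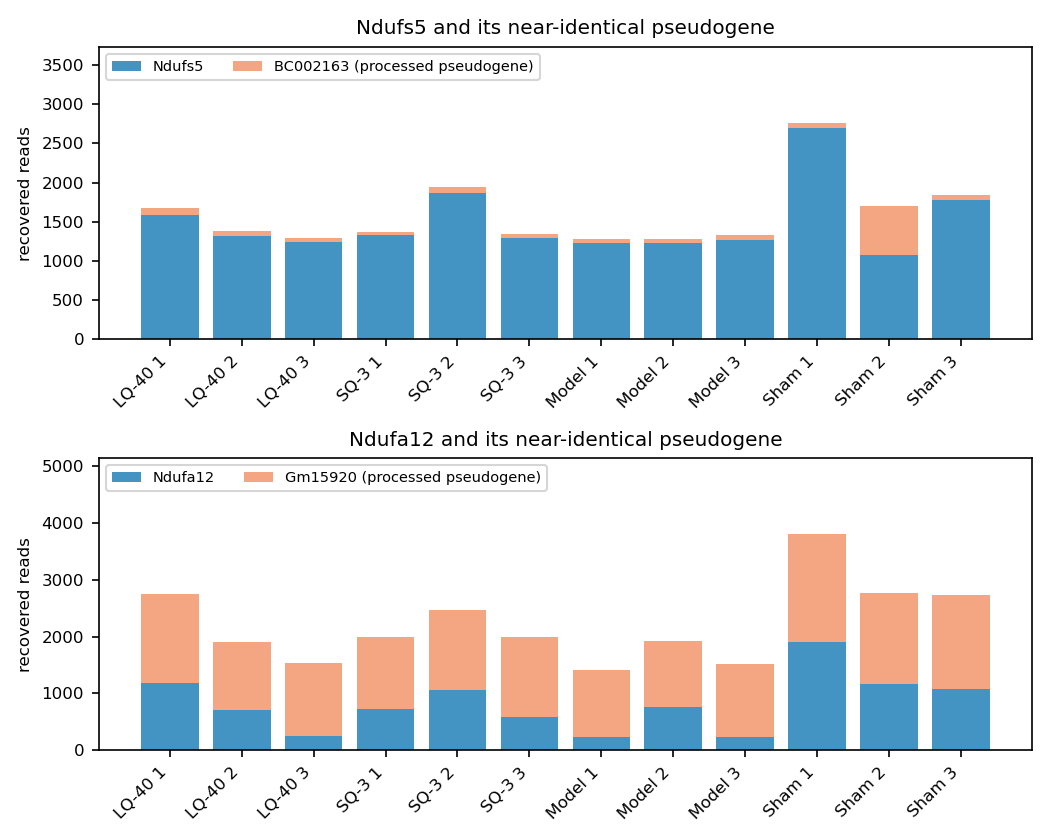
Reads recovered for Ndufs5 (upper panel) and Ndufa12 (lower panel), in blue, with those of the near-identical pseudogene stacked in orange, in the 12 libraries. BC002163 is a thin layer except in Sham 2, where it holds 629 reads, and Gm15920 holds more reads than Ndufa12 in every library.

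Members also varied together between libraries of 1 group. LQ-40 1 had the highest value of its group for 36 of 37 members, Sham 1 for 35 and Model 2 for 34. The median over members, relative to the Sham mean, was -0.29, -0.96 and -1.17 in LQ-40 libraries 1 to 3, -0.73, -0.67 and -0.46 in SQ-3 libraries, -1.19, -0.84 and -1.09 in Model libraries, and 0.27, -0.17 and -0.11 in Sham libraries. LQ-40 hearts were thus the most scattered, with a median SD over members of 0.454 on the log2 scale, against 0.193 in SQ-3, 0.210 in Model and 0.240 in Sham hearts. In Sham 1, Model 2 and LQ-40 1 the median deviation from the group mean was above 0 for members of every length class. The 10 members under 1000 bases had a median deviation of 0.32 in Sham 1, 0.21 in Model 2 and 0.47 in LQ-40 1, beside 0.16, 0.10 and 0.05 for all tested genes of that length. The 14 members of at least 1000 but under 2000 bases had 0.38, 0.27 and 0.47, beside 0.11, 0.06 and 0.03. The 13 members of 2000 bases or more had 0.21, 0.11 and 0.60, beside -0.01, -0.01 and -0.03.

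Cell-type markers also differed between Model and Sham hearts, in a direction that depended on the cell type. All 15 cardiomyocyte markers had a negative log2 change in Model hearts and 14 were called lower (median log2 -1.08, Actc1 not called at -0.65). Their scaled FPKM summed to 11285 to 13246 in Model libraries and 24228 to 27169 in Sham libraries. All 8 fibroblast markers rose (median 2.54), with sums of 3317 to 3637 in Model libraries and 471 to 618 in Sham libraries. Of 8 macrophage markers 5 were called higher (median 0.78), and the 8 summed to 379 to 484 in Model libraries and 214 to 304 in Sham libraries. Cd163 went the other way, at -0.64, and was not called. Of 8 endothelial markers 1 was called lower, against 18% of all genes, and 7 had a negative log2 change (median -0.22). The endothelial sums were 262 to 297 in Model libraries and 293 to 379.8 in Sham libraries. No marker was at 0 in any library. In bulk tissue, fewer cardiomyocytes and less RNA per cardiomyocyte cannot be told apart, and the part of these markers in the members' fall was not tested.

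The rest of the pathway was compared over lists of its genes. Of 16 assembly factors 13 fell (median -0.62, against -1.06 for the members). Ndufaf5, which modifies Ndufs7 by hydroxylation, changed by -0.92 (adjusted p = 0.00143), Tmem126b, of the assembly complex for the membrane arm, by -0.60 (0.00478), Ndufaf1 of the same complex by -0.94 (0.00575) and Ndufaf6 by -1.10 (0.00627). Tmem186 (-0.42), Dmac1 (-0.26) and Ndufaf7 (-0.22) were not called. Of the nuclear subunits of complexes II to V, all 38 had a negative log2 change and 36 were called lower (median -1.12). Among those called were Atp5o (-1.27) and Atp5f1 (-1.19) of ATP synthase and Uqcrh (-1.26) of complex III. Cox5b (-0.85) and Atp5e (-1.07) were not called. The median of these complexes lay close to that of the complex I members.

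The mitochondrially encoded subunits were less uniform. Of 7 genes only mt-Nd3, a core membrane subunit, was called lower (median of the list -0.64), where 18% of all genes were called lower. It had 115, 148 and 146 scaled FPKM in Model libraries and 579, 339 and 395 in Sham libraries (log2 -1.65, SE 0.41, adjusted p = 0.01). mt-Nd4l was at 439.8, 1028 and 402 in Model libraries and 534, 243 and 1103 in Sham libraries, scattered in both groups (log2 0.11, SE 0.80). The standard errors of these 7 genes were 0.35 to 0.80, against a median of 0.24 over the nuclear members, and reads of mitochondrial genes may be shared with nuclear copies, so that a p that misses the threshold does not show that they were level.

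Among 12 regulators of nuclear respiratory genes 5 were called lower. The coactivator Ppargc1b changed by -0.46 (limma adjusted p = 0.00807). The oestrogen-related receptors Esrra, Esrrg and Esrrb changed by -0.73 (0.0136), -0.74 (0.032) and -0.49 (0.0468). Tfam, which packages and transcribes mitochondrial DNA, changed by -0.53 (0.0192). Nrf1 (log2 0.17, adjusted p = 0.222) and Yy1 (-0.01, 0.95), whose letters were searched in the promoters, were not called, and neither was Ppargc1a (-0.45, 0.213). In all, 7 of the 12 were not called and 0 were called higher, where 20.9% of all genes were. The log2 change was positive for 3 of the 12, up to 0.44.

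The next comparison set hearts given the compounds against Model hearts. It shares the Model libraries with the first comparison. SQ-3 hearts had a higher fitted mean for all 35 complex I subunits, beside 48.3% of all genes. However, 0 of 37 members were called (0.0769% of all genes were called higher and 0.269% lower, 0.346% in all). The median log2 change was 0.43, beside -0.01 over all genes, 5 members had an unadjusted p below 0.05, and 14.2% of all genes did. For 20 members every SQ-3 library lay above every Model library, against 12.1% of all genes. The smallest p belonged to distal-arm subunits. Ndufb5 (chromosome 3, 32736990 to 32751566) had 42.8, 46.7 and 53.0 scaled FPKM in SQ-3 libraries and 26.9, 36.8 and 31.2 in Model libraries (log2 0.58, SE 0.22, limma adjusted p = 0.298). Ndufb6 (chromosome 4, 40270591 to 40279421) had 121, 137 and 146 in SQ-3 libraries and 87.9, 89.9 and 95.1 in Model libraries (log2 0.55, SE 0.22, adjusted p = 0.31). Both separated without overlap. Ndufb9 had 139, 177 and 157.5 in SQ-3 libraries, against the Model values above (log2 0.59, SE 0.24, adjusted p = 0.314). limma-voom on recovered reads also called 0 members.

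Core subunits showed the same without calls. Ndufv1 had 163, 134 and 177 scaled FPKM in SQ-3 libraries (log2 0.41 over Model, 95% interval -0.07 to 0.89) and Ndufs1 57.6, 50.2 and 65.3 (0.49, -0.03 to 1.01). Ndufs7 had 144, 105 and 171 (0.30, -0.26 to 0.86), with SQ-3 2 inside the Model range. Over the 37 members 32 intervals included 0. Ndufa4l2 had 22.04, 33.7 and 25.0 in SQ-3 libraries and overlapped Model (log2 -0.24, adjusted p = 0.508).

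LQ-40 hearts gave 0 called members against Model hearts as well, where 0.185% of all genes were called higher and 0.485% lower, 0.669% in all, and 0 members had an unadjusted p below 0.05, beside 12.1% of all genes. No member separated without overlap, against 7.28% of all genes higher and 10.8% lower. The median was 0.24, and -0.02 without LQ-40 replicate 1. limma-voom called 0 members too. The 3 smallest p belonged to Ndufa4l2, Ndufb5 and Ndufc2. Ndufa4l2 had 21.6, 26.5 and 29.6 scaled FPKM in LQ-40 libraries, against the Model values above (log2 -0.29, SE 0.17, adjusted p = 0.557). Ndufb5 had 59.87, 36.004 and 30.94 (log2 0.36, SE 0.22, adjusted p = 0.564). Ndufc2, a subunit at the joint of the membrane arm (chromosome 7, 97400003 to 97407802), had 197.5, 127 and 116 in LQ-40 libraries and 102, 127.5 and 112 in Model libraries (log2 0.33, SE 0.22, adjusted p = 0.592). In both complex I examples LQ-40 1 was above all Model values and the other two libraries lay within the Model range. Over the alternatives tried, 20 members changed sign in this contrast. Ndufv1 (190.4, 132 and 96.8), Ndufs1 (75.4, 43.5 and 34.1) and Ndufs7 (178, 117 and 83.8 scaled FPKM) also had LQ-40 1 above all Model values and LQ-40 3 below them.

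The markers had it as well. The cardiomyocyte median relative to the Sham mean was -0.36, -0.82 and -1.28 in LQ-40 libraries 1 to 3, and the fibroblast median was 0.96, 2.14 and 2.74. Their summed levels were 9790 to 19809 for cardiomyocytes and 1118 to 4036 for fibroblasts in LQ-40 libraries, 15136 to 19141 and 1781 to 2333 in SQ-3 libraries, and those given above in Model libraries. Against Model, 1 of 15 cardiomyocyte markers was called higher in each of the compound groups, Tcap, a titin-binding protein of the Z-disc (log2 2.01, adjusted p = 0.0258 in LQ-40 hearts and 2.10, 0.0346 in SQ-3 hearts), and 0 of 8 fibroblast markers were called. The part of these markers in the members' levels was not tested. Assembly factors had medians of 0.16 (LQ-40) and 0.27 (SQ-3) over Model, with 0 of 16 called in either. The 7 mitochondrial genes had 0.24 and 0.34 with 0 called.

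**Figure D5:**
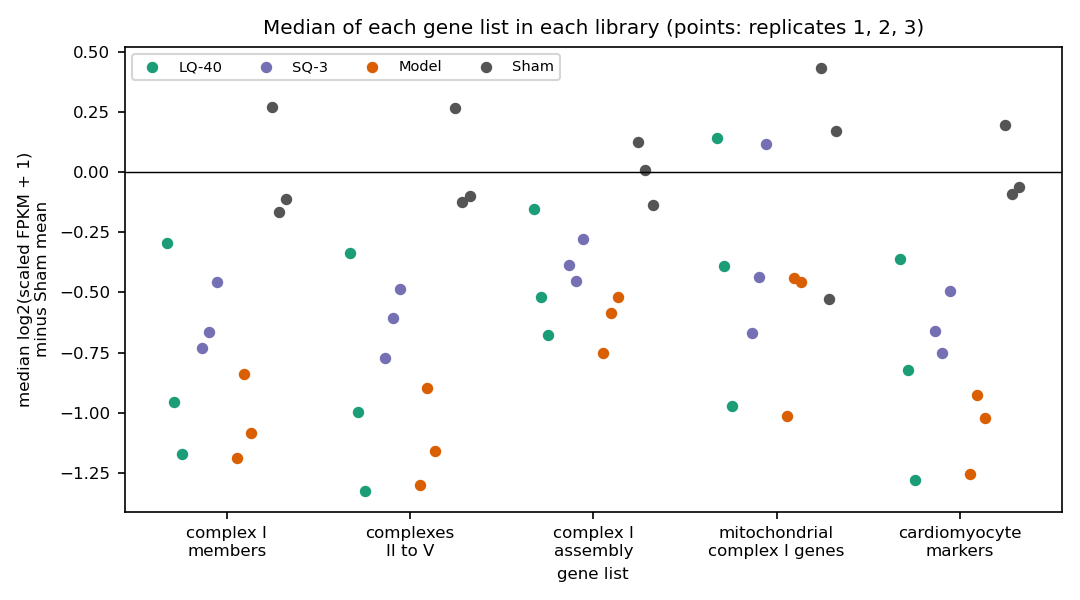
Median log2(scaled FPKM + 1) minus the Sham mean over each of 5 gene lists (x axis) in each library (points, 3 per group; LQ-40, SQ-3, Model and Sham from left to right within a list). LQ-40 points spread from -0.29 to -1.17 for complex I members and from -0.36 to -1.28 for cardiomyocyte markers, and the mitochondrial genes overlap between all groups.

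The pair of compounds was compared directly in 1 contrast. The labels give no dose or time for either, so it is not known whether these match. All 37 members had a lower fitted mean in hearts given LQ-40 than SQ-3 (median log2 -0.19, beside 0.00 over all genes). Over all genes, 50.7% had a higher one. Of the members 0 were called, where 0% of all genes were called, and 0 had an unadjusted p below 0.05, beside 3.03% of all genes. limma-voom called 0 members as well. No member separated without overlap, against 2.5% of all genes lower and 3.62% higher. All 37 intervals included 0. Ndufa13 had 128, 83.2 and 74.1 scaled FPKM in LQ-40 libraries and 107, 128 and 120 in SQ-3 libraries (log2 -0.35, 95% interval -0.80 to 0.11). Ndufa11, a membrane-arm subunit (chromosome 17, 56717767 to 56722141), had 165, 122 and 96.7 in LQ-40 libraries and 146, 154 and 163 in SQ-3 libraries (-0.30, -0.72 to 0.12). Ndufb2 had 4.06, 2.59 and 2.18 in LQ-40 libraries and 3.29, 3.90 and 3.68 in SQ-3 libraries (-0.26, -0.66 to 0.14). Intervals of this width do not show that the compounds act alike. The median was -0.47 without LQ-40 replicate 1 and 0.00 without LQ-40 replicate 3, and 22 members changed sign over the alternatives tried.

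Against Sham hearts both compound groups had lower fitted means for all 35 complex I subunits. Over all genes, 52.1% had a higher mean in LQ-40 hearts and 50.8% in SQ-3 hearts. These contrasts share the Sham libraries with the first one. In LQ-40 hearts 22 members were called lower, against 5.93% of all genes (9.83% were called higher), with a median of -0.81, and 24 did not overlap, against 14% of all genes. Ndufv1 changed by -0.90 (SE 0.22, adjusted p = 0.0254), Ndufs1 by -0.98 (SE 0.24, 0.0249) and Ndufs7 by -0.87 (SE 0.25, 0.0435). The count rested on single libraries. It was 0 without LQ-40 replicate 2, LQ-40 replicate 3 or Sham replicate 1, 2 without Sham replicate 2, 5 without Sham replicate 3, 11 without Model replicate 1, Model replicate 3 or SQ-3 replicate 1, 12 without Model replicate 2, 13 without SQ-3 replicate 3 and 35 without LQ-40 replicate 1.

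In SQ-3 hearts 0 members were called against Sham, where 1.82% of all genes were called lower and 4.86% higher, 6.68% in all, with a median of -0.64. The smallest adjusted p was 0.0528 (Ndufa2), 29 members had an unadjusted p below 0.05 beside 28.0% of all genes, and for 33 every SQ-3 library lay below every Sham library, against 16.4% of all genes (20.2% lay above). limma-voom called 1. Ndufv1 changed by -0.68 (95% interval -1.16 to -0.20, adjusted p = 0.0857), Ndufs1 by -0.74 (-1.26 to -0.22, 0.0853) and Ndufs7 by -0.68 (-1.24 to -0.12, 0.123). The count was 20 without LQ-40 replicate 1, whose spread enters the shared error, and 5 without LQ-40 replicate 3.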

How the data were processed

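Messenger RNA of 12 mouse heart libraries was analysed, in 4 groups of 3 taken from the sample titles; 2 rat libraries were not used here. Per the submitters' processing notes, fastp, HISAT2 2.0.5 and featureCounts 1.5.0-p3 were used, with mm10 for mouse. The authors deposited FPKM with gene lengths. The deposited FPKM gave back whole reads, within 0.02 of a read, for 100% of values. The annotation release, strand setting and treatment of multiply matching reads were not given in the sources used here; overlaps and copies were taken from GENCODE, where 33 members have the same coordinates.

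Median-of-ratios factors scaled the FPKM. The 13000 genes that reached 1 FPKM in 3 or more libraries were tested on log2 values with a pseudocount of 1 added to the deposited, scaled FPKM, using limma 3.58.1 in R 4.3.3 (trend, all 12 libraries in one fit, 10.9 degrees of freedom). Two-sided p-values were adjusted by Benjamini-Hochberg, with a threshold of 0.05. Every adjusted p is limma's. Intervals are 95% confidence intervals. Values printed per library run from replicate 1 to 3.

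Named members were core subunits (Ndufv1, Ndufs1 and Ndufs7), Ndufa4, Ndufa4l2, the 3 largest and 3 smallest changes in Model against Sham, members of opposite sign, and per compound contrast the 3 smallest p where none was called; from other lists up to 4 by smallest adjusted p and the uncalled where 4 or fewer. Ndufv2, Ndufs4, Ndufb8, Ndufa13, Ndufa1 and Ndufb11 were added for their roles, and Nrf1, Yy1, Ppargc1a and mt-Nd4l after their values were seen. Promoter motifs were shortened to at most 9 letters after longer forms had been searched. The members and lists were chosen with earlier results of these data known. The procedure was tested on simulated data. The individual values of 1 member are not reported here; it is included in all counts, medians and sums.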

Additional observations from a re-analysis of the deposited data

How the results depend on the processing

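In Model against Sham all 37 members kept their direction under each of the 22 alternatives in which they were tested (Ndufb2 did not pass the filter at a mean of 5 FPKM): other scalings (as deposited, quantile, nuclear reads), a smaller pseudocount, other filters, fewer groups, limma-voom, a replicate block, pseudogene reads added (chosen after seeing the data) and each library left out. The count of lower members in Model against Sham ran from 28 to 36 with 1 library left out, and that of higher members from 0 to 1. In LQ-40 against Sham, the 22 lower members became 7 with quantile normalization, 13 with scaling to nuclear reads, 0 with no filter and 0 with only the groups compared, and 0 to 35 with 1 library left out. In SQ-3 against Sham, the 0 became 1 with FPKM as deposited, with 0.1 as pseudocount, with limma-voom or with a filter at a mean of 5 FPKM, 6 with only the groups compared, and 0 to 20 with 1 library left out. The cause was not tested. Scaling to nuclear reads moved the median of all genes to 0.12 in Model and LQ-40 against Sham. Replicate numbers share only a number: of 18 same-numbered pairs 3 correlated above 0.1 (range -0.27 to 0.22), and the replicate block gave 8 lower members in LQ-40 against Sham in place of 22. With 3 libraries a group, the median standard error over the members was 0.24 on the log2 scale, which limits the size of change that could be called.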

Other observations

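Of the genes with a complex I symbol that are not members, Ndufb1-ps, listed as a bidirectional-promoter lncRNA, had 30.3, 23.4 and 27.5 scaled FPKM in LQ-40 libraries, 15.5, 43.6 and 29.4 in SQ-3 libraries, 14.9, 38.5 and 17.98 in Model libraries and 77.7, 27.1 and 33.1 in Sham libraries. Its libraries overlapped between Model and Sham (log2 -0.89, SE 0.46, limma adjusted p = 0.144). Ndufa11b was listed at 0 in all 12 libraries. The pseudogenes Ndufb4c (log2 -0.91, adjusted p = 0.0874) and Ndufs6b (-0.78, 0.176) were not called between Model and Sham.

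Core and supernumerary subunits differed in spread. The median SD over the 7 core subunits was 0.131 on the log2 scale in Model and 0.124 in Sham libraries, against 0.222 and 0.301 for the 28 supernumerary subunits. In LQ-40 libraries the core had the larger value, 0.549 beside 0.420, and in SQ-3 libraries 0.239 beside 0.174. These values are given without a test.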
